A study of Mus musculus with 6 samples.

Results

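The genes described here are 35 genes of glycolysis and of the hypoxia response, taken by symbol from a table of 39179 genes: 2 glucose transporters, 11 genes of upper glycolysis, 6 of lower glycolysis, 6 that handle pyruvate and lactate, and 10 other genes known to be induced by low oxygen. RNA sequencing gave their transcript levels in liver endothelial cells, sorted from male mice of the wild-type strain 129S6/SvEvTac. In the high_iron group the purified diet held 10000 ppm carbonyl iron, and in the control_iron group it held 37 ppm iron as ferric citrate. Both groups started the diet at 3 weeks of age and were sampled at 7 weeks, after 4 weeks on it, with 3 biological replicates per group and 6 libraries in all. The sort kept cells with CD31 and CD146 on their surface, and removed those with CD45, CD64, MHCII or lineage markers.

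Glycolysis splits glucose into pyruvate, which lactate dehydrogenase turns into lactate or mitochondria oxidise. Endothelial cells are known to draw much of their ATP from it. Low oxygen stabilises the hypoxia-inducible factors HIF-1 and HIF-2. HIF-1 switches on glucose transporters, most glycolytic enzymes, lactate dehydrogenase A and kinases that hold pyruvate out of mitochondria. The prolyl hydroxylases that mark HIF-1 and HIF-2 for destruction need both oxygen and ferrous iron.

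Of the 35 genes, 31 had at least 1 CPM (reads over a scaled library size, the usual counts-per-million scale) in at least 3 libraries and were tested. Aldoa and Gpi1, enzymes of upper glycolysis, rose on the high-iron diet, and none of the 31 fell (limma, adjusted p under 0.05 with Benjamini-Hochberg adjustment over all genes). That is 6.45% of the 31, where 1.02% of the 12980 genes tested passed, 0.832% as higher and 0.193% as lower. edgeR called the same 2 genes, against 0.863% of all genes. The genes did not move together: 16 had a positive and 15 a negative log2 fold change, with a median of 0.00, against -0.003 over all genes tested. Pkm, pyruvate kinase, with a log2 fold change of 0.94, and Ndrg1, a hypoxia-induced gene, with -0.87, differed by about as much as Gpi1 (0.88) and did not pass.

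Libraries held 12963510 to 21663543 reads in genes, so that 3 reads correspond to 0.139 to 0.231 CPM, a floor that covers counting error only. Log2(CPM + 1) values of library pairs, over the genes tested, correlated with r of 0.964 to 0.988 within a group and 0.951 to 0.981 across groups. Pecam1, which encodes CD31, was abundant, at 606 ± 49.5 CPM in high_iron and 686 ± 51.5 CPM in control_iron libraries (SD, n = 3). Mcam, which encodes CD146, was far less abundant, at 8.85 ± 2.26 CPM in high_iron and 18.4 ± 8.46 CPM in control_iron libraries. The 14 endothelial markers summed to 23482 to 24278 CPM in high_iron and 24601 to 27062 CPM in control_iron libraries, without overlap. Their median log2 fold change was -0.19, with 11 negative and 3 positive. None passed by limma or edgeR, 3 had an unadjusted p under 0.05, and DESeq2 called 1, Lyve1, as higher. Of 16 markers of macrophages, which the gate should remove, 15 were tested and 3 rose by limma, against 1.02% of all genes. edgeR called 2 and DESeq2 11, all higher, against 0.863% and 3.27% of all genes. An unadjusted p under 0.05 was reached by 14 of the 15, against 12.1% of all genes. For 12 the groups did not overlap, against 17.9% of all genes. The median log2 fold change of the 15 was 1.66, and none was negative. Without Mrc1, which sinusoidal endothelium also expresses, the other 15 summed to 267 to 534 CPM in high_iron and 77.1 to 182 CPM in control_iron libraries, and none was at 0 throughout. Hepatocyte markers summed to 988 to 1823 CPM in high_iron and 442 to 1795 CPM in control_iron libraries, with 22 of 22 positive, a median of 0.60 and none at 0 throughout. Lymphocyte markers summed to 16 to 25.3 CPM in high_iron and 3.85 to 9.68 CPM in control_iron libraries. Of 4 tested, 1 passed by limma and 0 by edgeR, and 4 had an unadjusted p under 0.05. Erythroid markers summed to 835 to 4766 CPM in high_iron and 1164 to 3794 CPM in control_iron libraries. Stellate and fibroblast markers summed to 242 to 1079 CPM in high_iron and 152 to 1147 CPM in control_iron libraries. Both of these sums overlapped between the groups. The part of these cells in the differences described here was not tested. In sorted bulk RNA, fewer cells of a type and less RNA per cell cannot be told apart.

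**Figure D1:**
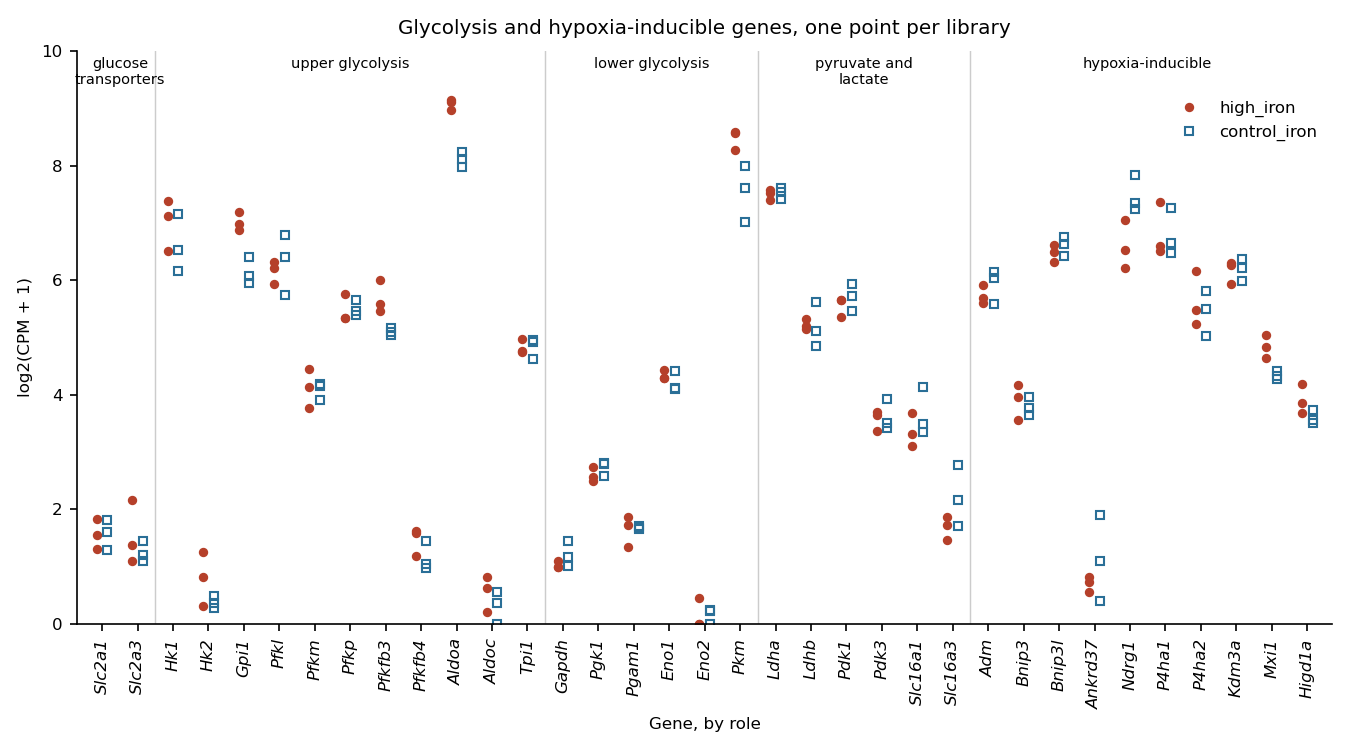
Level of each of the 35 genes in every library, as log2(CPM + 1), grouped by role, with high_iron libraries as filled circles and control_iron libraries as open squares. Aldoa has the highest CPM and stands higher in all 3 high_iron libraries (501 to 569 CPM) than in all 3 control_iron libraries (251 to 301 CPM), while most other genes overlap.

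Promoter sequence was available in RefSeq (GRCm38.p6) for 32 of the 35 genes, as windows from 250 bases before to 50 bases after a transcription start. The core of the hypoxia response element (ACGTG or GCGTG, either strand, where CACGTG counts on both) was present in 90.6% of the 32 genes, against 46.7% of all 27025 genes with a window. By single windows, it was present in 77.6% of 49 against 43.8% of 32851. The core of the antioxidant response element (TGACNNNGC, either strand) was present in 18.8% of the 32 genes, against 14% of all genes. A match is a description of the letters and not a binding site. The comparison genes were not matched to the 32 genes for base composition or expression level. The 250 bases before the start are shown for the 2 called genes, for Pkm, and for Ldha, which held the most hypoxia cores of the genes with a window. Capitals mark matches to either core.
Aldoa, chr7:126799255-126799504, minus strand: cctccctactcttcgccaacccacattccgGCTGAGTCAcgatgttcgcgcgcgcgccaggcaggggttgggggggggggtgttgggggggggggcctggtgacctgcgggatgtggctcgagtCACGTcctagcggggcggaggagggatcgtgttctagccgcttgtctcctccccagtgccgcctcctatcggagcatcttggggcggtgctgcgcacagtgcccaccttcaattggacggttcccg
Gpi1, chr7:34230337-34230586, minus strand: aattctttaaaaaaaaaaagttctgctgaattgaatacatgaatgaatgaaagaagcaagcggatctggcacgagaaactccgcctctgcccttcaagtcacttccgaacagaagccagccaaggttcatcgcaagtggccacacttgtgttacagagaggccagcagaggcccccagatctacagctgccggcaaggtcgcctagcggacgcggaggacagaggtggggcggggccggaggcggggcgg
Pkm, chr9:59656977-59657226, plus strand: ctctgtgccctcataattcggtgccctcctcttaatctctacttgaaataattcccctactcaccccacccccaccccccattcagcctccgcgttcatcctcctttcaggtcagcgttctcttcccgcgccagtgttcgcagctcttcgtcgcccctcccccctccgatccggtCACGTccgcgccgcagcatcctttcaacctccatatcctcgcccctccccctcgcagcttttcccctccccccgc
Ldha, chr7:46845554-46845803, plus strand: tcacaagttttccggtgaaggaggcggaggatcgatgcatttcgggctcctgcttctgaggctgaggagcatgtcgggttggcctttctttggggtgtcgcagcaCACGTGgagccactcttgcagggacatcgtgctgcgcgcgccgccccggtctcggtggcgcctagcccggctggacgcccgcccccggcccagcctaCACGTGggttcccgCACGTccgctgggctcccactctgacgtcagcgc
Aldoa had 1 hypoxia core, at position -126, and 1 antioxidant core, at -220, counted from the start. It has 3 windows, of which a second, overlapping one holds the same hypoxia core and the third holds neither. The single Gpi1 window held no match to either core. Pkm had hypoxia cores at -75 and 9 in this window and none in its other one. Ldha had 7 matches, 5 of them before the start.

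Glucose enters endothelial cells through Slc2a1 (GLUT1) and Slc2a3 (GLUT3), both hypoxia-inducible in many cells. Slc2a1 was at 2.57, 1.47 and 1.92 CPM in high_iron libraries 1 to 3, against 2.03, 1.44 and 2.51 CPM in control_iron libraries 1 to 3. The groups overlapped, the log2 fold change was -0.00, and its 95% interval ran from -0.58 to 0.57. Slc2a3 was at 1.13, 1.59 and 3.46 CPM in high_iron and at 1.3, 1.72 and 1.14 CPM in control_iron libraries. The high_iron group was wide because of replicate 3, and the log2 fold change of 0.29 (95% interval -0.39 to 0.98) did not pass (limma adjusted p = 0.711). Both transcripts were rare: per length, Slc2a1 averaged 0.660 RPKM (CPM per kilobase of gene length) in high_iron and 0.662 RPKM in control_iron libraries.

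Hexokinase traps glucose as glucose 6-phosphate. Hk1 was at 89.9, 166 and 139 CPM in high_iron libraries, against 141, 91.1 and 70.8 CPM in control_iron libraries. The groups overlapped, and the log2 fold change of 0.39 ± 0.27 (± SE) did not pass (limma adjusted p = 0.588). Hk2, the hypoxia-inducible isozyme, was near the floor, with 27, 4 and 10 reads in high_iron and 4, 6 and 7 reads in control_iron libraries, and was not tested. Hk1 led in all 6 libraries, with 90.4% of the summed hexokinase RPKM in high_iron and 96.1% in control_iron libraries. Hk3, the isozyme known from myeloid cells, made up 5.64% to 14.7% in high_iron and 1.34% to 4.48% in control_iron libraries. Hk3 was at 6.83, 4.3 and 3.84 CPM in high_iron, against 0.831, 1.86 and 1.42 CPM in control_iron libraries, without overlap, and missed the threshold (log2 fold change 1.33 ± 0.28, limma adjusted p = 0.0617). The part of the macrophage RNA described above in the Hk3 values was not tested.

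Gpi1, glucose-6-phosphate isomerase, converts glucose 6-phosphate to fructose 6-phosphate. It was at 116, 146 and 126 CPM in high_iron libraries, against 66.3, 83.7 and 60.8 CPM in control_iron libraries. Every high_iron library lay above every control_iron library. Gpi1 rose by 0.88 ± 0.16 on the log2 scale (95% interval 0.52 to 1.23, limma adjusted p = 0.0368), with a ratio of group means of 1.84. Gpi1 (ENSMUSG00000036427) spans chromosome 7 from 34201330 to 34230336, minus strand, in GRCm38. A noncoding gene on the opposite strand covers 11.5% of its 20 merged exons, and 25.3% of its 50-base windows occur in other genes, at most 18.6% in any 1 of them. With 1 library left out the call held in 2 of 6 fits. It was lost without high_iron replicates 1, 2 or 3 (adjusted p = 0.0842, 0.161 and 0.189) and without control_iron replicate 3 (adjusted p = 0.0928).

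Phosphofructokinase commits sugar to glycolysis, and its 3 isozyme genes overlapped between the diets. Pfkl, the liver type, was at 72.8, 79.2 and 60.4 CPM in high_iron and 109, 83.8 and 52.4 CPM in control_iron libraries. Pfkl led in all 6 libraries with 57.6% of the summed RPKM in high_iron and 60.3% in control_iron libraries, and Pfkm and Pfkp took between 15.3% and 26.8% each in any library. Their log2 fold changes were -0.15 for Pfkl, 0.04 for Pfkm and -0.02 for Pfkp, with 95% intervals inside -0.69 to 0.51.

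Pfkfb3 makes fructose 2,6-bisphosphate, which activates phosphofructokinase, and is known as a driver of endothelial glycolysis in vessel sprouting. It was at 42.9, 63.3 and 47 CPM in high_iron libraries, against 35.1, 32.1 and 33.1 CPM in control_iron libraries. The groups did not overlap, yet the log2 fold change of 0.58 ± 0.17 (95% interval 0.20 to 0.96) missed the threshold (limma adjusted p = 0.189, and 0.0619 by DESeq2). Pfkfb3 led its family in all 6 libraries, at 70.4% of the summed RPKM in high_iron and 61.6% in control_iron libraries. Pfkfb4, a hypoxia-inducible relative, was at 1.79 ± 0.438 CPM in high_iron and 1.25 ± 0.405 CPM in control_iron libraries (SD, n = 3), and did not pass.

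Aldolase splits fructose 1,6-bisphosphate into 2 trioses. Aldoa was at 569, 501 and 555 CPM in high_iron libraries, against 251, 301 and 275 CPM in control_iron libraries. The groups stood well apart, with a spread within each of 6.57% and 8.99% of the mean in high_iron and control_iron libraries. Aldoa rose by 0.97 ± 0.13 on the log2 scale (95% interval 0.68 to 1.27, limma adjusted p = 0.00969), with a ratio of group means of 1.97, and ranked 34 by p among the 12980 genes. Aldoa (ENSMUSG00000030695) spans chromosome 7 from 126795234 to 126800751, minus strand, in GRCm38. The call held in 4 of the 6 fits with 1 library left out, and was lost without high_iron replicate 1 (adjusted p = 0.0509) and replicate 3 (adjusted p = 0.099). edgeR and DESeq2 on recovered reads called both Aldoa (adjusted p = 0.0167 and 1.87e-09) and Gpi1 (adjusted p = 0.0478 and 1.39e-04).

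Aldoa has copies elsewhere in the genome: 13.9% of the 50-base windows of its principal transcript also occur, letter for letter, in 6 other genes, 5 of them pseudogenes. Aldoart1, the copy that shares most, was chosen after its values were seen. It was at 21.1, 17.9 and 19.9 CPM in high_iron and 8.68, 12.8 and 6.21 CPM in control_iron libraries, a log2 fold change of 1.06 ± 0.25 that did not pass (limma adjusted p = 0.0868). Its values and those of Aldoa are not independent where reads match both. Aldoc had at most 13 reads in any library and was not tested.

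**Figure D2:**
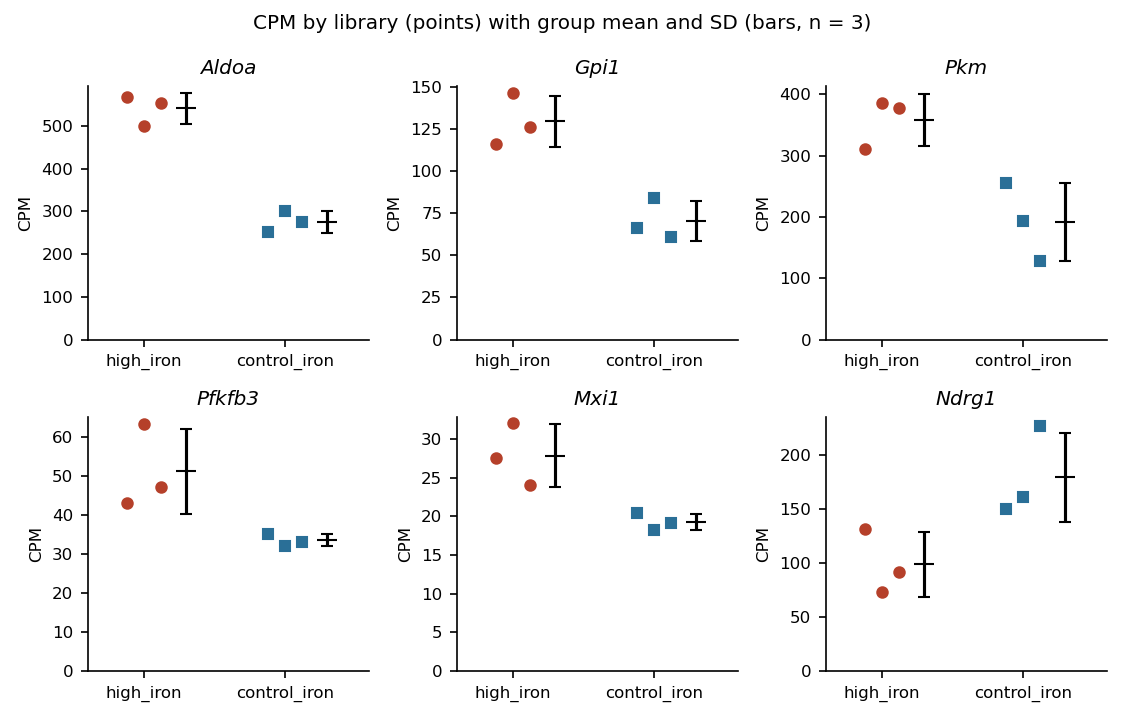
CPM by library for the 6 tested genes whose groups do not overlap, high_iron to the left and control_iron to the right of each panel, with the group mean and SD (n = 3) as bars. Aldoa and Gpi1 passed the threshold; Pkm, Pfkfb3 and Mxi1 were higher and Ndrg1 lower in all 3 high_iron libraries without passing.

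Lower glycolysis harvests ATP and NADH from the trioses. Pkm, pyruvate kinase, which makes pyruvate, was at 310, 386 and 378 CPM in high_iron libraries, against 255, 194 and 128 CPM in control_iron libraries. The groups did not overlap, and the control_iron group was the wider, the coefficient of variation being 11.6% in high_iron and 33.1% in control_iron libraries. The log2 fold change of 0.94 ± 0.23 (95% interval 0.44 to 1.45) missed the threshold (limma adjusted p = 0.101, edgeR 0.138), while DESeq2 called it (adjusted p = 0.00573). Without control_iron replicate 1 Pkm passed, with an adjusted p of 0.0195 and a log2 fold change of 1.17. An annotated gene of unsettled type on the same strand covers 15.3% of its merged exons, 34.4% of its 50-base windows occur in other genes, and these values do not separate its M1 and M2 splice forms.

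Tpi1, Gapdh, Pgk1, Pgam1 and Eno1, the enzymes between aldolase and pyruvate kinase, did not pass. Tpi1 was at 27.6 ± 2.64 CPM in high_iron and 27.6 ± 3.47 CPM in control_iron libraries (SD, n = 3), and Eno1 at 19.2 ± 1.26 CPM in high_iron and 17.6 ± 2.24 CPM in control_iron libraries. Their log2 fold changes were 0.00 and 0.13, with 95% intervals of -0.37 to 0.37 and -0.25 to 0.51. Pgk1 and Pgam1 had log2 fold changes of -0.13 and -0.04, with intervals of -0.59 to 0.33 and -0.57 to 0.49. Eno2, the neuronal enolase, was at 0 in 3 libraries, with at most 7 reads in the others, and was not tested.

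Gapdh, whose mRNA is abundant in most cells, was listed at only 22, 17 and 13 reads in high_iron and 24, 22 and 30 reads in control_iron libraries. That is 1.04 ± 0.0742 CPM in high_iron and 1.33 ± 0.350 CPM in control_iron libraries, and its log2 fold change of -0.18 had a 95% interval of -0.71 to 0.36. Of the 50-base windows of its principal transcript, 82.5% occur letter for letter in at least 1 of 222 other genes, 213 of them pseudogenes. The share was 72.2% for Eno1, 68% for Pgk1, 62.4% for Bnip3 and 41.5% for Pgam1, the 4 genes that follow, and 0 for 14 of the 35. With 75-base windows it was 80.3% for Gapdh and 65.4% for Eno1. Per length, Gapdh averaged 0.497 RPKM over the 6 libraries, Pgam1 1.19 and Pgk1 2.25, against 140 RPKM for Aldoa, 106 for Pkm and 61.3 for Ldha. Neither the read length nor the handling of reads that match several places is stated in the labels. The part of shared sequence in these low levels was not tested, and they are not used to rank the enzymes.

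**Figure D3:**
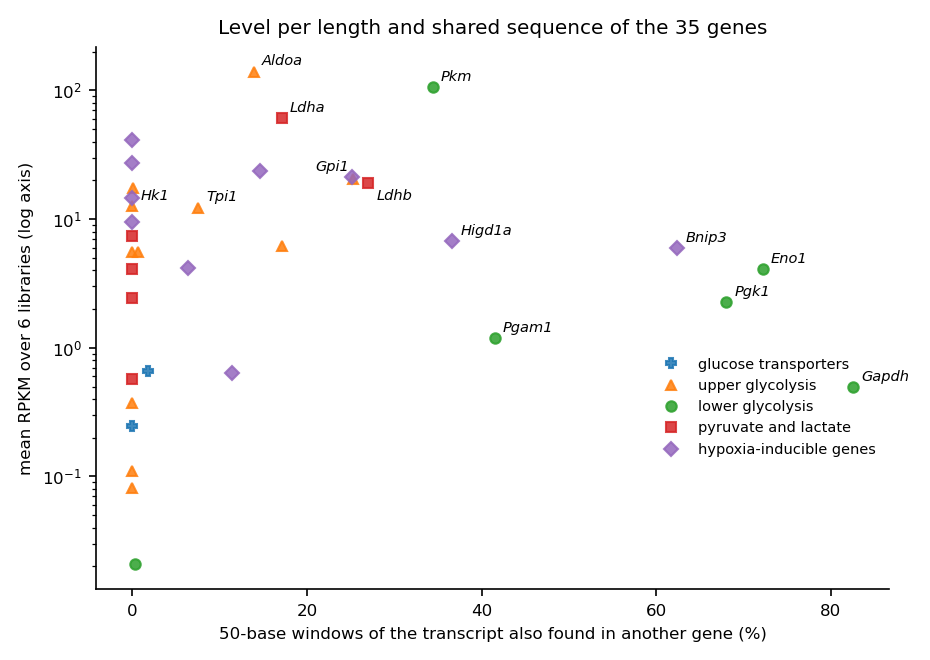
Mean level per length (RPKM over 6 libraries, log axis) against the share of 50-base windows found letter for letter in another annotated gene, 1 point per gene with the symbol marking its role. Gapdh, Eno1, Pgk1 and Bnip3 lie furthest right, with 62.4% to 82.5% of windows shared, and Gapdh is at 0.497 RPKM.

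None of the 6 pyruvate and lactate genes passed by limma, edgeR or DESeq2, and 0 had an unadjusted p under 0.05. Ldha, the hypoxia-inducible lactate dehydrogenase subunit, was at 167, 183 and 190 CPM in high_iron and 195, 171 and 185 CPM in control_iron libraries. The groups overlapped almost fully, and the 95% interval of its log2 fold change of -0.03 ran from -0.30 to 0.25, the narrowest interval of the 31 genes. Ldhb, the subunit that favours pyruvate formation, was at 36.4 ± 2.33 CPM in high_iron and 36.6 ± 10.4 CPM in control_iron libraries (SD, n = 3). Ldha held 76.1% of the summed RPKM of the pair in high_iron and 76.5% in control_iron libraries. Pdk1 and Pdk3, kinases that shut pyruvate out of mitochondria and that hypoxia induces, had log2 fold changes of -0.15 (95% interval -0.52 to 0.22) and -0.04 (-0.51 to 0.43).

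Among the 4 pyruvate dehydrogenase kinases, Pdk4, which fasting and fatty acids induce, led in all 6 libraries. It held 57.7% ± 4.07 of their summed RPKM in high_iron and 46.8% ± 0.451 in control_iron libraries (SD, n = 3), without overlap. Pdk4 itself was at 90.4, 97.4 and 83.4 CPM in high_iron and 68, 63.6 and 55.9 CPM in control_iron libraries. Its log2 fold change of 0.53 ± 0.14 did not pass (limma adjusted p = 0.128), and DESeq2 called it (adjusted p = 0.0257). The monocarboxylate transporters Slc16a1 (MCT1) and Slc16a3 (MCT4, the hypoxia-inducible exporter of lactate) had log2 fold changes of -0.29 (95% interval -0.87 to 0.28) and -0.53 (-1.20 to 0.13). Slc16a3 was at 1.75, 2.65 and 2.31 CPM in high_iron and 5.82, 3.48 and 2.28 CPM in control_iron libraries, overlapping through control_iron replicate 3.

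**Figure D4:**
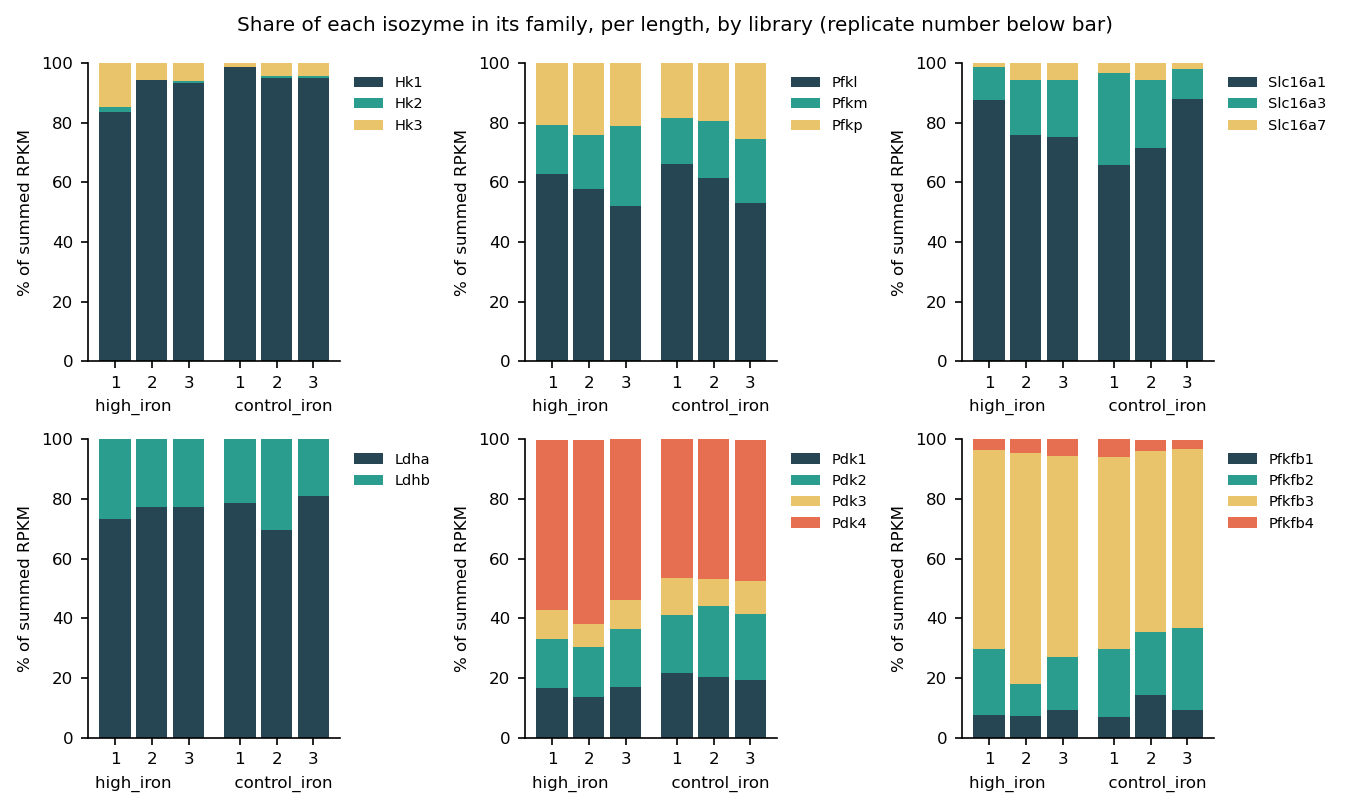
Share of each isozyme in the summed RPKM of its family, 1 stacked bar per library, with high_iron replicates 1 to 3 to the left of control_iron replicates 1 to 3. Hk1, Pfkl, Slc16a1, Ldha, Pdk4 and Pfkfb3 each led in all 6 libraries.

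Across 11 isozyme families, 9 had the same leading gene in all 6 libraries. The exceptions were the enolases and phosphoglycerate mutases, where leadership was split between Eno1 and Eno3 and between Pgam1 and Pgam2, in 3 libraries each. Eno1 and Pgam1 are among the genes with much shared sequence. Prolyl 4-hydroxylase subunits P4ha1 and P4ha2, which hydroxylate collagen, kept to 73.1% and 26.9% in high_iron and 74.9% and 25.1% in control_iron libraries.

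Of the 10 other hypoxia-inducible genes, 9 were tested and none passed by limma or edgeR. An unadjusted p under 0.05 was reached by 2 of the 9, against 12.1% of all genes, and DESeq2 called 1, Ndrg1, against 3.27%. The median log2 fold change of the 9 was 0.03, with 5 positive and 4 negative. Ndrg1, a stress-induced cytoplasmic protein, was at 132, 73.3 and 91.5 CPM in high_iron libraries, against 150, 161 and 227 CPM in control_iron libraries. The groups did not overlap, although high_iron replicate 1 came close to control_iron replicate 1. The log2 fold change of -0.87 ± 0.23 (95% interval -1.38 to -0.36) missed the threshold by limma (adjusted p = 0.134) and edgeR (0.173), and DESeq2 gave an adjusted p of 0.0196.

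Mxi1, a repressor that opposes MYC, was at 27.5, 32.1 and 24 CPM in high_iron and 20.4, 18.3 and 19.1 CPM in control_iron libraries. All 3 high_iron libraries were higher, with a log2 fold change of 0.50 ± 0.17 that did not pass (limma adjusted p = 0.265). Adm, which encodes the vasodilator peptide adrenomedullin and is abundant in endothelium, was at 59.2, 47.4 and 50.4 CPM in high_iron and 69.5, 64.4 and 46.8 CPM in control_iron libraries, with overlap (log2 fold change -0.19, 95% interval -0.58 to 0.21). Bnip3 and Bnip3l, receptors that send mitochondria to autophagy, had log2 fold changes of 0.12 (-0.36 to 0.59) and -0.12 (-0.45 to 0.20). Bnip3l was the more abundant of the pair per length in all 6 libraries.

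P4ha1 was at 96.3, 164 and 89.6 CPM in high_iron and 153, 99.1 and 88.4 CPM in control_iron libraries, each group having 1 high library. P4ha2, Kdm3a, a histone demethylase, and Higd1a, a mitochondrial protein, had log2 fold changes of 0.18, -0.03 and 0.31, and none passed. Ankrd37, a HIF-1 target in many cells, had 13, 13 and 6 reads in high_iron and 53, 7 and 20 reads in control_iron libraries. It was not tested. An overlapping gene on the opposite strand covers 22.7% of its merged exons. For the tested genes Higd1a and Bnip3 such an overlap covers 22.5% and 22.3%. The library kit named in the labels is not stated to keep strand.

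**Figure D5:**
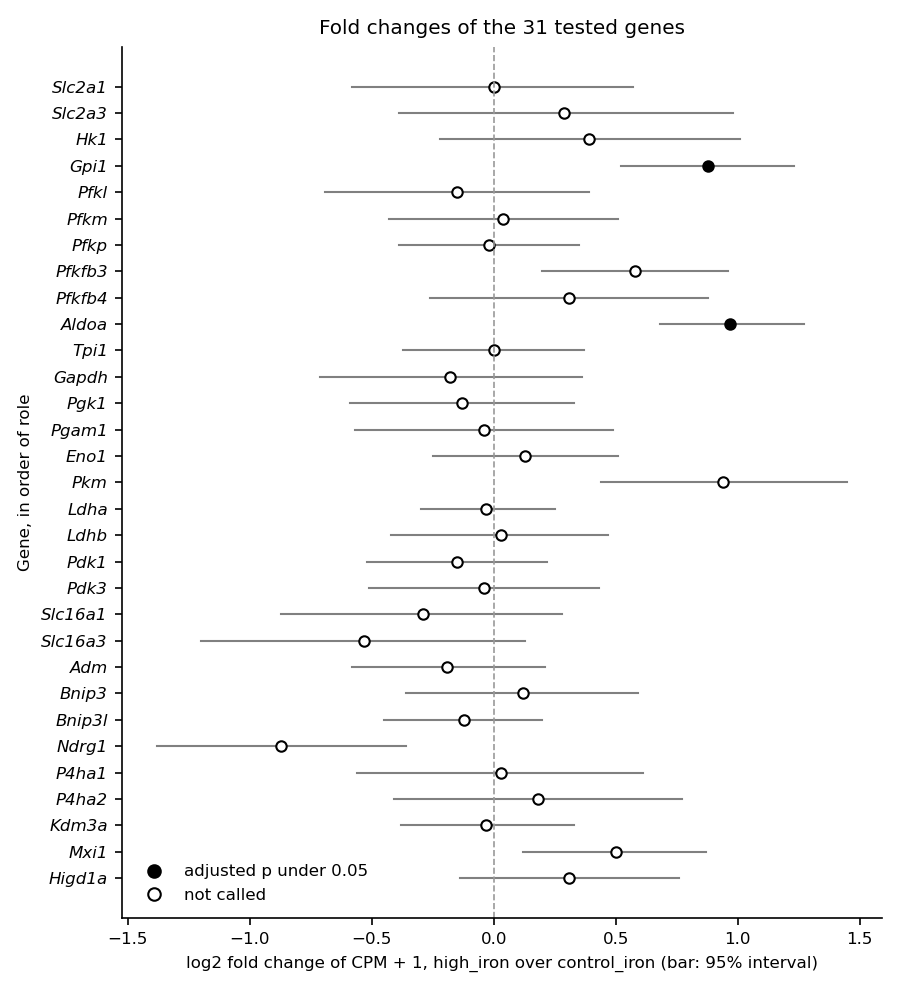
Log2 fold change of CPM + 1, high_iron over control_iron, for the 31 tested genes in order of role, with 95% intervals as bars. The filled points, Aldoa and Gpi1, passed an adjusted p under 0.05, and 25 of the 31 intervals lie inside -1 to 1.

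The groups did not overlap for 6 of the 31 genes, 5 higher and 1 lower, or 19.4%, where 17.9% of all genes tested did not overlap. An unadjusted p under 0.05 was reached by 6 of the 31, again 19.4%, against 12.1% of all genes, and DESeq2 called 4, or 12.9%, against 3.27%. For 25 of the 31 genes the 95% interval of the log2 fold change of CPM + 1 lay between -1 and 1. For the abundant genes among them a doubling or larger change of CPM is outside the interval. Near 1 CPM, as for Slc2a3, Pfkfb4 and Gapdh, a doubling or halving of CPM is less than 1 unit on this scale. For such genes it can lie inside the interval. The summed level of the 35 genes was 2151 to 2333 CPM in high_iron and 1631 to 1923 CPM in control_iron libraries, a difference carried mostly by the abundant Aldoa and Pkm. The coefficient of variation was larger in control_iron than in high_iron libraries for 18 of the 31 genes.

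Other genes of glucose and pyruvate metabolism were read from a list of 51. Of 40 tested, none passed by limma or edgeR. An unadjusted p under 0.05 was reached by 5, against 12.1% of all genes, and DESeq2 called 2, Hk3 and Pdk4, against 3.27%. The median log2 fold change of the 40 was 0.16, with 28 positive and 12 negative, where 49.5% of all genes tested were positive. Pck2, mitochondrial phosphoenolpyruvate carboxykinase, was at 53.8, 62.7 and 65.8 CPM in high_iron and 51.7, 44.4 and 29.6 CPM in control_iron libraries. The groups did not overlap, and the log2 fold change of 0.56 ± 0.20 did not pass (limma adjusted p = 0.319).

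A further 45 genes known to respond to hypoxia gave 1 call among 35 tested by limma, a higher one, where 1.02% of all genes passed. Their median log2 fold change was -0.05, with 14 positive and 21 negative. An unadjusted p under 0.05 was reached by 7 of the 35, against 12.1% of all genes. edgeR called the same gene as limma, against 0.863% of all genes. DESeq2 called 1 higher and 3 lower (Flt1, Cav1 and Zfp395), against 2.53% higher and 0.74% lower over all genes. Egln3, the prolyl hydroxylase PHD3 that HIF induces as feedback, was at 3.39, 2.53 and 3.69 CPM in high_iron and 0.468, 0.929 and 0.626 CPM in control_iron libraries. Every control_iron library was under 1 CPM, so Egln3 entered the test only through the high_iron libraries, where it was high. The call is therefore not independent of the filter. The groups stood apart, with a log2 fold change of 1.33 ± 0.24 (limma adjusted p = 0.0399). Leaving out any 1 of the 6 libraries ended the call, with adjusted p-values of 0.0575 to 0.223. Flt1, a VEGF receptor, and Cav1, a coat protein of caveolae, lay just outside the threshold on the low side. Flt1 was at 370, 340 and 350 CPM in high_iron and 565, 553 and 832 CPM in control_iron libraries (log2 fold change -0.85 ± 0.17, limma adjusted p = 0.0549). Cav1 was at 35.7, 31.2 and 36.1 CPM in high_iron and 78.2, 59.3 and 52.5 CPM in control_iron libraries (log2 fold change -0.85 ± 0.17, limma adjusted p = 0.055). For Zfp395, a zinc finger gene, it was -0.61 ± 0.17 (limma adjusted p = 0.161). Vegfa, the best known HIF target, was at 6.57, 6.54 and 3.46 CPM in high_iron and 6.91, 4.78 and 5.07 CPM in control_iron libraries, with overlap.

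Of the factors themselves, Hif1a was at 125, 121 and 131 CPM in high_iron and 162, 120 and 103 CPM in control_iron libraries (log2 fold change -0.01, 95% interval -0.38 to 0.37). Epas1, which encodes HIF-2 alpha, was at 456, 452 and 428 CPM in high_iron and 522, 523 and 772 CPM in control_iron libraries, lower without overlap and not called (log2 fold change -0.42 ± 0.17, limma adjusted p = 0.369). HIF proteins are controlled largely after transcription, and protein was not measured.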

How the data were processed

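RNA from sorted cells (70 ng per library) was made into cDNA libraries with a low-input SMARTer kit, per the labels' protocols. STAR, HTSeq, edgeR and mm10 appear in the submitters' processing notes, without versions. The authors deposited a normalized signal called CPM, reads over a scaled library size, and RPKM values, which equal CPM per kilobase of gene length within 8e-11. All values above 0 (100%) were whole multiples of 1 read within 0.001 read, so reads were recovered.

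High_iron was compared with control_iron by limma 3.58.1 (R 4.3.3) on log2(CPM + 1) with diet group in the model, a variance trend and Benjamini-Hochberg adjustment over the 12980 genes that reached 1 CPM in 3 or more libraries. This scale understates changes of low genes. edgeR 4.0.16 and DESeq2 1.42.0 were run on the recovered reads, where edgeR called 112 and DESeq2 424 genes. The fits were tested on simulated data. Levels of different genes were compared as RPKM. Shared windows and gene positions come from GENCODE M21 (GRCm38, which is mm10), using exact matches on either strand.

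The 35 genes and all lists were chosen with earlier results of these data known. Besides the 35, named genes were list members that passed, otherwise the 4 smallest p-values of a list, Hif1a, Epas1 and chosen markers. Vegfa, Eno3, Pgam2 and Aldoart1 were named after their values were seen. Replicates of one diet differed far beyond sampling noise (chi-square over its degrees of freedom 18.2 to 89.1), so none was a duplicate. Some genes of these lists, and 1 isozyme family, are not reported here. Of 251 listed genes, 249 were found.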

Additional observations from a re-analysis of the deposited data

How the results depend on the processing

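The count of genes passing was 34 with no filter (0.142% of those tested), 83 with RPKM (0.639%), 402 with a replicate block (3.1%), 424 by DESeq2 (3.27%) and 27 to 183 with 1 library left out, against 133. Of the 35 genes, 1 passed with no filter and 1 with RPKM (Aldoa), 4 with the replicate block and 4 by DESeq2 (Aldoa, Gpi1, Pkm and Ndrg1), and 0 to 3 with 1 library left out, against 2. Other pathway genes: 3 with the block, 2 by DESeq2, 0 to 0 with 1 library left out. Other hypoxia genes, against 1: 0 with no filter, 0 with the stricter filter (which removes Egln3), 2 with plain total scaling (1 of them lower), 3 with the block (2 lower), 4 by DESeq2 (3 lower), 0 to 1 with 1 library left out (a lower call, Flt1). The median log2 fold change of the 31 tested genes moved between -0.04 and 0.07 with 1 library left out. The libraries share only a number. Deviations of same-numbered libraries correlated at 0.128, 0.32 and 0.0625, and those of differently numbered libraries at -0.388 to 0.198. Whether same-numbered libraries were paired or shared a batch was not tested, and the block is not read as a paired design.

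Signs turned, always at an adjusted p over 0.05, for Slc2a1 (0.0018 with median-ratio factors, 0.0039 by DESeq2), Tpi1 (-0.0034 with plain scaling, -0.02 by edgeR, -0.0039 by DESeq2) and Ldhb (-0.01 by edgeR, -0.0031 by DESeq2). With 1 library left out they also turned for Slc2a1 (-0.14 to 0.13), Slc2a3 (-0.01 to 0.52), Pfkl (-0.43 to 0.08), Pfkm (-0.13 to 0.21), Pfkp (-0.17 to 0.05), Tpi1 (-0.10 to 0.06), Pgam1 (-0.14 to 0.11), Ldha (-0.08 to 0.03), Ldhb (-0.14 to 0.24), Pdk3 (-0.14 to 0.12), Bnip3 (-0.02 to 0.28), P4ha1 (-0.24 to 0.26), P4ha2 (-0.09 to 0.37) and Kdm3a (-0.13 to 0.09). The causes were not tested. With 3 libraries per group, genes near 1 CPM, such as Gapdh with 13 to 30 reads, have wide intervals.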
